A study of Mus musculus with 6 samples.

Results

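The transcription factor NRF2 and the antioxidant genes it is known to control were examined as 10 genes of the deposited table, chosen by gene symbol: Nfe2l2, Nqo1, Hmox1, Gclc, Gclm, Txnrd1, Srxn1, Gpx1, Gpx2 and Gpx4. They are 10 of the 28752 genes listed, each with 1 entry, and all 10 were among the 18348 genes with enough reads to be tested. RNA sequencing was performed on samples labelled as intestinal crypt stem cells. For its organoid work the paper describes Lgr5+ intestinal stem cells (ISCs) sorted by fluorescence from the crypts of Lgr5-GFP mice. Crypt stem cells fluoresce in this reporter line, and the sorted cells were grown as crypt-villus organoids. Whether the sequenced cells were prepared in this way is not stated in the methods of the paper. The control group (n = 3) carried the vector and the other group (n = 3) overexpressed circEZH2_005, a circular RNA of the Ezh2 gene, from an adenovirus. The labels give the genotype of the controls as WT, an infection of 72 h, and hypoxia/reoxygenation (H/R) with 4 h at 2% O2 for all 6 samples, so that the groups differ by circEZH2_005 under H/R and no sample kept in normal oxygen was used here. The methods describe the mice of the study as male, and an age is stated there only for the C57BL/6 mice, not for the Lgr5-GFP line. The replicates are called biological in the study, but whether they came from separate cultures or animals is not given in the sources used here, and p-values then measure only the spread between these samples. The question was how the antioxidant genes differed between cells with the vector and with circEZH2_005 when both had gone through H/R.

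NRF2, the product of Nfe2l2, is held at a low level by KEAP1, which marks it for degradation. When oxidants or electrophiles modify KEAP1, NRF2 accumulates, pairs with small MAF proteins and binds antioxidant response elements (AREs) near genes of glutathione synthesis, the thioredoxin system and quinone and haem metabolism, while BACH1 occupies the same elements as a repressor. NRF2 is regulated largely at the level of its protein, which was not measured here. Reoxygenation of the intestine is a classical source of reactive oxygen species, and the glutathione peroxidases of the epithelium, Gpx2 among them, reduce peroxides there.

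The 300 bases around the transcription start, from 250 before it to 50 after, were available from RefSeq (GRCm38.p6) for 8 of the 10 genes, all but Hmox1 and Gclc. The ARE core TGACNNNGC was searched on both strands, so that its reverse complement GCNNNGTCA counted as well. It stood in the window of 4 of these 8 genes, Gclm, Srxn1, Txnrd1 and Nfe2l2, and in a window of 3781 of all 27025 genes (14%). These 4 windows are shown 5′ to 3′ on the strand of the gene, because they hold the core and cover, among others, the gene whose expression passed the test, the gene with the largest fold change, and the regulator itself. Capitals mark the ARE core and, in Srxn1, also the AP-1 element TGACTCA, read here as TGAGTCA on the strand shown, which was searched after the sequences had been seen. Txnrd1 has 3 windows, and the window printed is the one that holds the core. The lines give Gclm (chr3:122245307-122245606, plus strand), Srxn1 (chr2:152105274-152105573, plus strand), Txnrd1 (chr10:82858956-82859255, plus strand) and Nfe2l2 (chr2:75704614-75704913, minus strand).
Gclm: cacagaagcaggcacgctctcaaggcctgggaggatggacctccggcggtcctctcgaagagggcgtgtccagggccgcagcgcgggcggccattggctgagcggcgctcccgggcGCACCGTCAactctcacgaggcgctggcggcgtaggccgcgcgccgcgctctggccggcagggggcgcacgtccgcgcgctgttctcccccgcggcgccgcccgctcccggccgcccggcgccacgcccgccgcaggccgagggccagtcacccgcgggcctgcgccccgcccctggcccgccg
Srxn1: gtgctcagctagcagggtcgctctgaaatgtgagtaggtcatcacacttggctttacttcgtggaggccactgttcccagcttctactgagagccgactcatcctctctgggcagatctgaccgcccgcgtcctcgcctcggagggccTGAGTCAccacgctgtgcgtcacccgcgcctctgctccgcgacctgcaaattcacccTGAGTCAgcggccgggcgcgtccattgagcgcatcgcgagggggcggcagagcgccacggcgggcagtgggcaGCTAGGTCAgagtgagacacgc
Txnrd1: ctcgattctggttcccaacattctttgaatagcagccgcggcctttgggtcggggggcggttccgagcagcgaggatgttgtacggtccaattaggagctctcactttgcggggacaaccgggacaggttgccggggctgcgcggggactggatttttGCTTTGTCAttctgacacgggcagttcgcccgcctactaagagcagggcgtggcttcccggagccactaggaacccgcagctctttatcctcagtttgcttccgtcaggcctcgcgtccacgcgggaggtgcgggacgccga
Nfe2l2: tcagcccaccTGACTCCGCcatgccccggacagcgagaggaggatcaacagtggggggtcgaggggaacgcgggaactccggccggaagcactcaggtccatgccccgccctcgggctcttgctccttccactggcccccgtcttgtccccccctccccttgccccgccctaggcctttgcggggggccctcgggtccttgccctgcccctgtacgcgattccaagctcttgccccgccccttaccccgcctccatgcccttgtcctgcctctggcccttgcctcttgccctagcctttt
The core began 134 bases before the start in Gclm, 92 before it in Txnrd1, 240 before it in Nfe2l2 and 28 after it in Srxn1. The Srxn1 window also held the AP-1 element at 2 places, 102 and 45 bases before the start, whereas no other window of the 8 genes held it and 5.95% of all genes did. A match describes these letters only, and binding of a factor was not measured.

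Among the antioxidant genes, the differences between the groups were small, and the genes did not move together. Gclm, the regulatory subunit of glutamate-cysteine ligase, rose by 1.34-fold with circEZH2_005 and was the only member that passed the test across all genes. Srxn1, which encodes sulfiredoxin and restores overoxidised peroxiredoxins, was 1.39-fold higher, and Nqo1, a quinone reductase, was 1.17-fold higher, in both cases without overlap between the groups but with adjusted p-values above 0.05. Gpx2, Gclc, Gpx1, Hmox1, Nfe2l2 and Txnrd1 had fold changes below 1, and Gpx4 differed by 1.02-fold. In counts, 1 of 10 members was higher and 0 were lower at an adjusted p under 0.05 (quasi-likelihood F-test of edgeR, adjusted after Benjamini and Hochberg), where 2.69% of all genes tested (493) were higher and 0.986% (181) lower. By limma on log2(FPKM + 1) the split over all genes was 371 higher and 364 lower. At an unadjusted p under 0.05, 3 members were higher and 0 lower, against 14.0% and 9.72% of all genes, and DESeq2 called 2 members higher and 0 lower, where it called 9.25% of the genes with an adjusted p higher and 4.10% lower. The normalised counts of the groups did not overlap in 3 members, all higher with circEZH2_005, whereas 16.4% of all genes were higher without overlap and 14.2% lower. The median log2 fold change of the members was -0.08, that of all genes tested was 2.15e-05, and 4 of the 10 members had a value above 0. With 3 samples per group an exact permutation test cannot give a p below 0.1, which is what Gclm, Srxn1 and Nqo1 had.

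**Figure D1:**
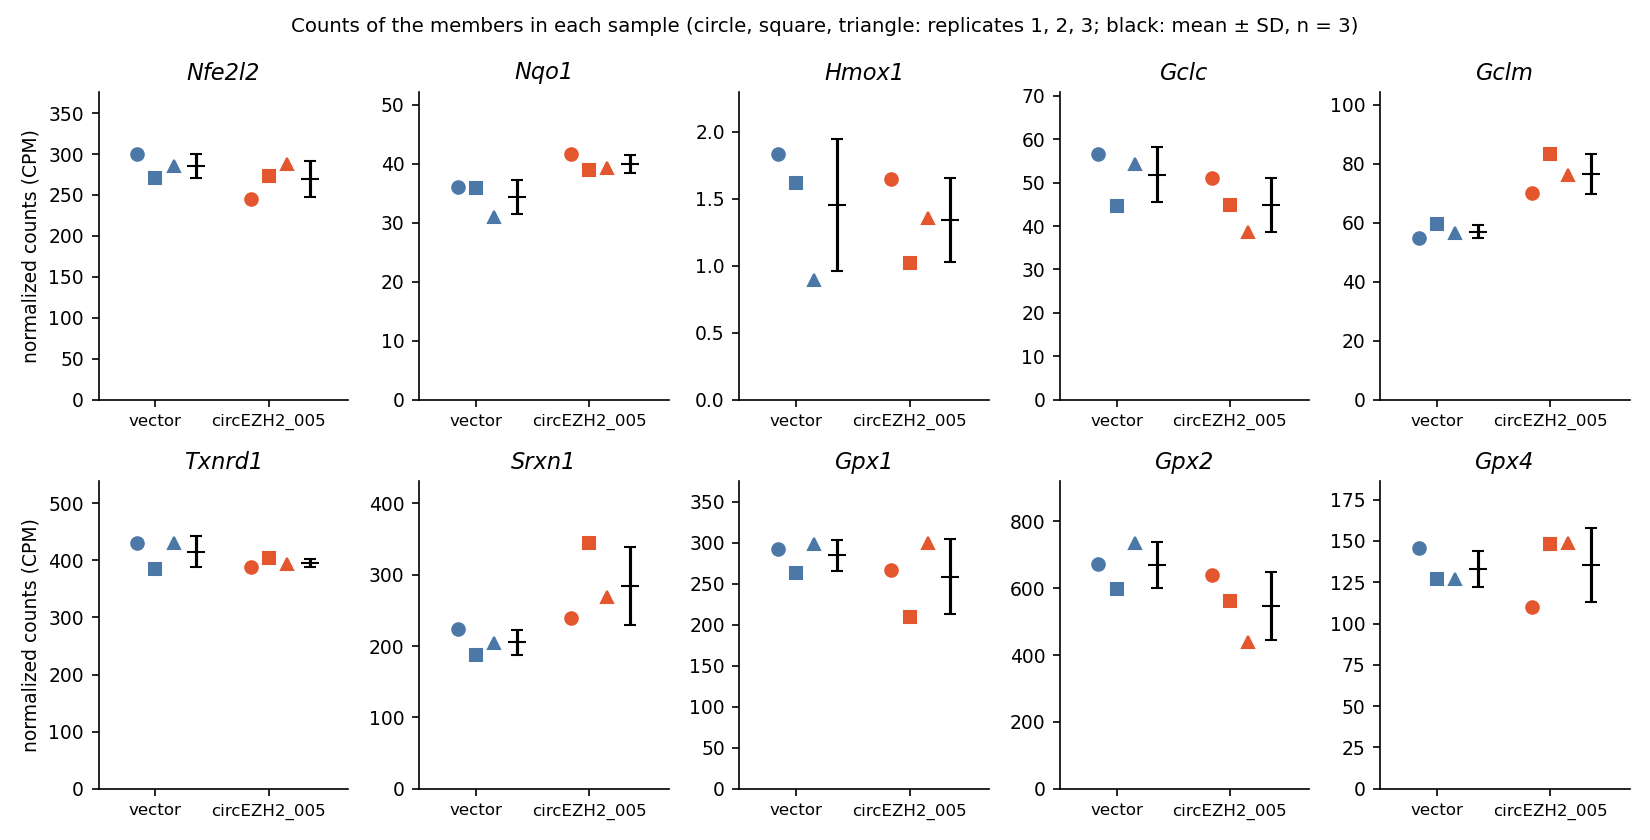
TMM-normalised counts (CPM, y axes, each from 0) of the 10 genes in the 3 vector and the 3 circEZH2_005 samples, with the mean and SD in black. In Gclm, Srxn1 and Nqo1 all circEZH2_005 samples lie above all vector samples, and in the other 7 genes the groups overlap.

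Nfe2l2 (chromosome 2, 75675513 to 75704641, minus strand, GRCm38) encodes NRF2 itself. Its normalised counts, scaled to library size and given as CPM, were 300.7, 271.3 and 285.0 CPM in vector samples 1 to 3 and 245.0, 273.7 and 288.2 CPM in circEZH2_005 samples 1 to 3. The groups overlapped, and the lowest value was that of circEZH2_005 sample 1. The log2 fold change was -0.09 (95% interval -0.30 to 0.13, adjusted p = 0.627, edgeR). In FPKM, which carry no TMM scaling, the direction was the same but the groups did not overlap. The values were 72.2, 67.0 and 69.6 FPKM with the vector and 60.2, 60.1 and 64.4 FPKM with circEZH2_005. Over all genes tested by limma on log2(FPKM + 1), the median log2 fold change was -0.07. In the same test Nfe2l2 had a value of -0.17 (adjusted p = 0.173, limma). The share of all genes that did not overlap in FPKM was not computed. The small gene Gm24996 lies within Nfe2l2 on the same strand.

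Glutamate-cysteine ligase makes the first and rate-limiting step of glutathione synthesis from a catalytic subunit, Gclc, and a modifier subunit, Gclm, that raises its activity. Gclm (chromosome 3, 122245557 to 122270732, plus strand) had 54.94, 59.44 and 56.60 CPM in vector samples 1 to 3 and 69.97, 83.53 and 76.30 CPM in circEZH2_005 samples 1 to 3. The lowest circEZH2_005 sample was above the highest vector sample, and the means were 57.0 ± 2.28 and 76.6 ± 6.79 CPM (SD, n = 3 each). The log2 fold change was 0.43 with a standard error of 0.09 (95% interval of the fold 1.17 to 1.55, adjusted p = 0.0468, edgeR). This p lies close to the threshold, and only 5 of 15 alternative analyses kept it under 0.05, although in all 15 the gene was higher with circEZH2_005. Without vector sample 1 or 3, or without circEZH2_005 sample 2 or 3, the adjusted p was between 0.104 and 0.181. Gm6061 overlaps Gclm on the same strand and Gm17494 on the other.

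Gclc (chromosome 9, 77754535 to 77794485, plus strand) had 56.7, 44.6 and 54.2 CPM with the vector and 51.1, 44.9 and 38.7 CPM with circEZH2_005. The groups overlapped, and the lowest value was that of circEZH2_005 sample 3. The log2 fold change was -0.21 with a standard error of 0.13 (95% interval -0.51 to 0.10, adjusted p = 0.391). The 2 subunits thus lay on opposite sides of 0. The ratio of Gclc to Gclm in FPKM, chosen after the values had been seen, was 1.725, 1.253 and 1.599 in the vector samples and 1.220, 0.8985 and 0.8466 in the circEZH2_005 samples. The ratio was lower in all 3 circEZH2_005 samples than in any vector sample, with a narrow gap between vector sample 2 and circEZH2_005 sample 1 (exact permutation p = 0.1, the smallest possible).

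Thioredoxin reductase 1, the product of Txnrd1, keeps thioredoxin reduced, and sulfiredoxin uses that system to repair the peroxiredoxins. Srxn1 (chromosome 2, 152105516 to 152109322, plus strand) had 223.5, 188.0 and 203.9 CPM in the vector samples and 240.0, 344.9 and 268.2 CPM in the circEZH2_005 samples. All circEZH2_005 samples were higher than all vector samples, circEZH2_005 sample 2 most of all, and the spread was larger among them (SD 54.3 CPM around a mean of 284.4) than among the vector samples (SD 17.8 CPM around 205.1). The log2 fold change was 0.47 with a standard error of 0.14 (95% interval of the fold 1.10 to 1.75, edgeR p 0.103 after adjustment over all genes). DESeq2 called it, with an adjusted p of 0.0209. Leaving out single samples moved the log2 fold change between 0.31 and 0.58.

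Txnrd1 (chromosome 10, 82833951 to 82897712, plus strand) had 430.6, 384.5 and 430.2 CPM with the vector and 388.2, 403.3 and 393.5 CPM with circEZH2_005. These ranges overlapped, and the log2 fold change of -0.07 had a 95% interval of -0.27 to 0.12 (adjusted p = 0.660). The ratio of Srxn1 to Txnrd1 in FPKM, also chosen after the values had been seen, was 1.304, 1.228 and 1.191 with the vector and 1.553, 2.149 and 1.713 with circEZH2_005. It was higher in every circEZH2_005 sample (exact permutation p = 0.1, the smallest possible). Eid3 overlaps Txnrd1 on the same strand, and Gm38560 and Gm47073 on the other.

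Nqo1, which reduces quinones by transferring electron pairs, and Hmox1, which degrades haem, are the targets most often used to read NRF2 activity. Nqo1 (chromosome 8, 107388225 to 107403206, minus strand) had 36.1, 35.8 and 31.0 CPM in the vector samples and 41.7, 39.0 and 39.3 CPM in the circEZH2_005 samples. The groups did not overlap, with means of 34.29 ± 2.87 and 39.98 ± 1.502 CPM (SD, n = 3 each). Its log2 fold change was 0.22 with a standard error of 0.09 (95% interval 0.01 to 0.43, edgeR p 0.183 after adjustment over all genes). In FPKM the ranges overlapped, from 18.49 to 21.58 with the vector and from 20.92 to 25.02 with circEZH2_005.

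Hmox1 (chromosome 8, 75093621 to 75100589, plus strand) was the member with the fewest reads, with 133, 121 and 70 counts in the vector samples and 131, 76 and 97 counts in the circEZH2_005 samples. In CPM these were 1.84, 1.62 and 0.894 against 1.65, 1.02 and 1.35, so that the lowest sample of all was vector sample 3. A count of 3 reads corresponds to between 0.0377 and 0.0419 CPM in these libraries, well below these levels. The log2 fold change was -0.11 with a standard error of 0.35 (adjusted p = 0.885), and its sign turned to 0.05 without circEZH2_005 sample 2 and to 0.09 without vector sample 1. The 95% interval of the fold, 0.529 to 1.62, was the widest of the 10 genes.

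Gpx1, Gpx2 and Gpx4 encode glutathione peroxidases, which reduce peroxides at the cost of glutathione. Gpx1 acts in the cytosol and mitochondria of most cells, Gpx2 is the form of the gastrointestinal epithelium, and Gpx4 reduces lipid hydroperoxides in membranes and guards against ferroptosis. All 3, and Txnrd1, carry selenocysteine. Gpx2 (chromosome 12, 76792333 to 76795554, minus strand) had 672.5, 597.1 and 735.7 CPM with the vector and 640.7, 561.3 and 438.0 CPM with circEZH2_005. The groups overlapped, but the mean was lower with circEZH2_005 and circEZH2_005 sample 3 was the lowest of all. The log2 fold change was -0.29 with a standard error of 0.15 (95% interval of the fold 0.641 to 1.04, adjusted p = 0.297). Gpx2 lay below 0 in all 15 alternative analyses, between -0.42 and -0.15, and in none of them under the threshold. Fntb overlaps it on the other strand.

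Gpx1 (chromosome 9, 108338903 to 108340343, plus strand) had 292.8, 262.7 and 298.6 CPM with the vector and 266.6, 209.3 and 300.1 CPM with circEZH2_005. The highest and the lowest value both belonged to circEZH2_005, and the log2 fold change was -0.14 (95% interval -0.46 to 0.18, adjusted p = 0.599). Gpx4 (chromosome 10, 80047166 to 80056439, plus strand) had 145.5, 127.0 and 126.7 CPM against 109.8, 148.1 and 148.9 CPM. Its circEZH2_005 sample 1 was below and the other 2 were above every vector sample, and the log2 fold change was 0.03 (95% interval -0.28 to 0.34, adjusted p = 0.927). The sign for Gpx4 turned under upper-quartile scaling, library totals alone and both tests on FPKM, with values from -0.07 to -0.02, and lay between -0.05 and 0.16 with single samples left out. Gpx4-ps2, a copy of Gpx4 listed as a gene of its own, held a number of reads equal to between 20.1% and 22.4% of those of Gpx4, and how reads were divided between them is not given in the sources used here.

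**Figure D2:**
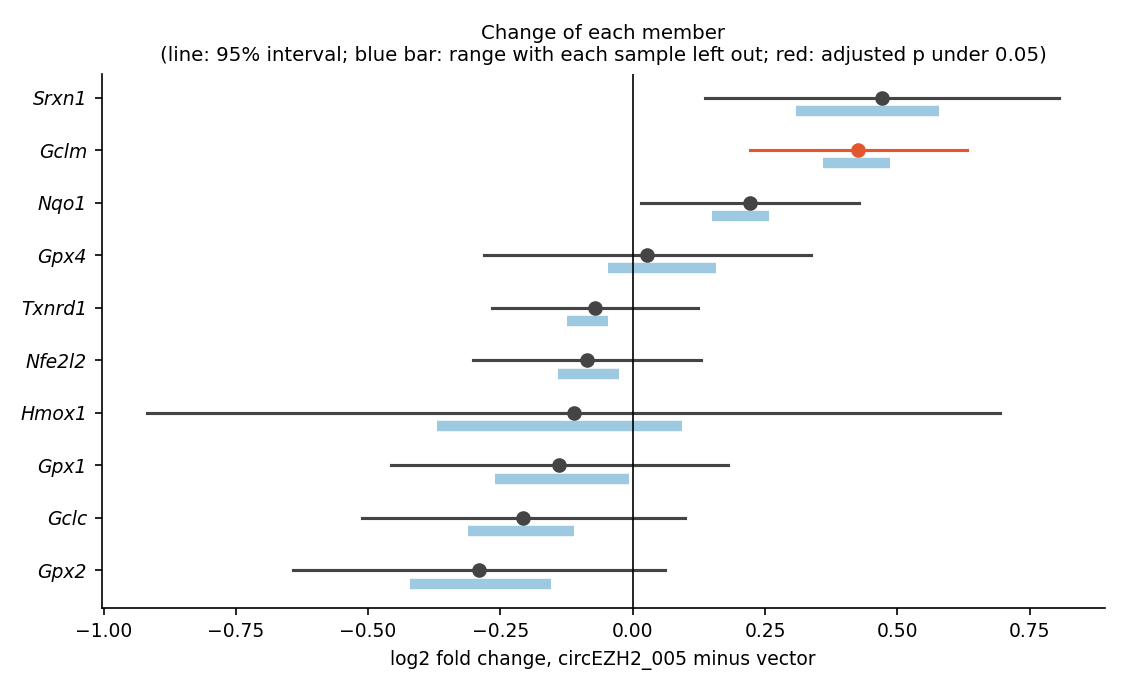
Log2 fold change of circEZH2_005 minus vector (x axis) for the 10 genes, with the 95% interval as a line and, below it in blue, the range of values with each sample left out. Gclm, in red, had an adjusted p of 0.0468, the intervals of Srxn1, Gclm and Nqo1 lie above 0, and those of the other 7 cross it.

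The samples did not rank alike across the genes. Relative to the vector mean on the log2 CPM scale, circEZH2_005 sample 2 was the highest of the 3 circEZH2_005 samples for Gclm (0.55) and Srxn1 (0.75) but the lowest for Gpx1 (-0.44). CircEZH2_005 sample 3 was the lowest for Gpx2 (-0.60) and Gclc (-0.41), and its Gpx1 and Gpx4 stood at 0.08 and 0.17. CircEZH2_005 sample 1 was the lowest for Nfe2l2 (-0.22) and Gpx4 (-0.27). Summed over the 10 genes, the vector samples held between 1972 and 2223 CPM and the circEZH2_005 samples between 1993 and 2109 CPM, which overlap.

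Levels can be compared between genes only per transcript length, here in FPKM, fragments scaled to transcript length and depth. With the vector, Gpx2 (mean 191.8 FPKM) and Gpx1 (182.7) stood highest and overlapped each other, and Gpx4 (71.3), Nfe2l2 (69.6) and Srxn1 (67.2) followed, each overlapping the next. Txnrd1 (54.2), Nqo1 (20.4), Gclc (12.7), Gclm (8.38) and Hmox1 (0.757) each lay apart from their neighbours. The peroxidases thus exceeded both subunits of the glutathione-synthesising ligase, and Hmox1 was the lowest in every sample. With circEZH2_005 the order was Gpx1 (156.7), Gpx2 (148.6), Srxn1 (87.3), Gpx4 (68.1), Nfe2l2 (61.6), Txnrd1 (48.5), Nqo1 (22.5), Gclm (10.6), Gclc (10.4) and Hmox1 (0.669). In this order Srxn1 stood apart from Gpx4 and at rank 3 in place of rank 5, while Gpx1 and Gpx2, Gpx4 and Nfe2l2, and Gclm and Gclc could not be separated. The ratio of Gpx1 to Gpx2 in FPKM was 0.973, 0.984 and 0.907 with the vector and 0.930, 0.833 and 1.53 with circEZH2_005, the last being the sample in which Gpx2 was lowest (exact permutation p = 0.9).

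**Figure D3:**
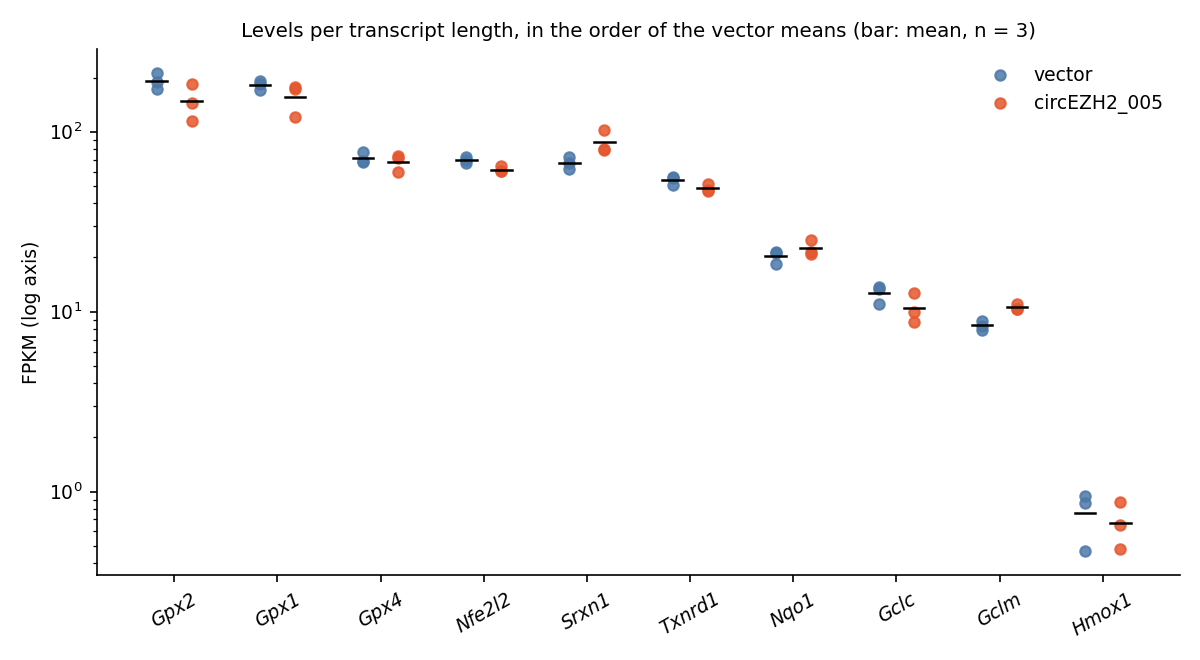
FPKM (log axis) of the 10 genes in each of the 3 vector and 3 circEZH2_005 samples, ordered by the vector mean, with group means as bars. Gpx2 and Gpx1 lie above 100 FPKM in every sample, Hmox1 lies below 1 FPKM in every sample, and the ranges of Gclm and Gclc are apart with the vector and overlap with circEZH2_005.

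The other genes of the pathway were followed in 10 lists with 144 genes between them, some in more than 1 list, of which 143 were in the table and 139 were tested. Of these 139 genes, 8 rose, 3 fell and 128 did not pass the test, and their median log2 fold change was 0.04. In CPM, 30 of them were higher and 22 lower without overlap between the groups, beside 16.4% and 14.2% of all genes. The counts of calls were read against the 2.69% of all genes that were higher and the 0.986% that were lower. All 11 kept their direction in every alternative analysis, but the call held in 3 (G6pdx and Oplah) to 11 (Selenop and Tfrc) of the 15 (14 for Gpx7). Without vector sample 2, and likewise without circEZH2_005 sample 1, 7 of the 11 stayed called, and without any of the other 4 samples 0 did. The lists of superoxide dismutases and catalase (5 genes tested), selenoprotein synthesis (8 genes) and haem synthesis and breakdown (13 genes) held no gene that passed.

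Among 14 regulators of KEAP1 and NRF2, 1 rose and 0 fell, with a median of 0.09. It was Sqstm1, the autophagy receptor that binds KEAP1, which went from 81.2 ± 1.37 to 114.0 ± 5.22 CPM (log2 fold change 0.49, standard error 0.07, adjusted p = 0.0232, edgeR). Keap1 had 63.4, 67.9 and 54.2 CPM with the vector and 73.7, 86.9 and 75.4 CPM with circEZH2_005. These ranges did not overlap, but their log2 difference of 0.35 had an adjusted p of 0.112. For Bach1 the log2 fold change of 0.30 missed the threshold as well (standard error 0.14, adjusted p = 0.233), and its groups overlapped. Sqstm1 overlaps Mrnip and Keap1 overlaps Gm16754, and the strand setting of the counts is not given in the sources used here.

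Among 30 other NRF2 target genes, 1 rose and 2 fell, with a median of -0.06. G6pdx, the X-linked glucose-6-phosphate dehydrogenase that supplies NADPH, rose from 88.6 ± 2.39 to 117 ± 7.78 CPM (log2 fold change 0.40, standard error 0.08, adjusted p = 0.0438). Prdx6, a peroxiredoxin that also reduces phospholipid peroxides, fell from 397 ± 42.9 to 264 ± 3.41 CPM (log2 fold change -0.59, standard error 0.10, adjusted p = 0.0301), and was the only call among 19 thioredoxins, peroxiredoxins and methionine sulfoxide reductases. Ptgr1, a reductase of alkenals and prostaglandins, fell from 66.0 ± 5.45 to 47.2 ± 4.67 CPM (log2 fold change -0.49, standard error 0.10, adjusted p = 0.0472). NRF2 target genes thus passed the test in both directions. G6pdx overlaps Ikbkg.

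Of 18 genes of glutathione synthesis and use, 3 rose and 0 fell, with a median of 0.12. Glrx, a glutaredoxin that removes glutathione from proteins, had 160.8, 161.6 and 136.5 CPM with the vector and 224.4, 376.1 and 284.9 CPM with circEZH2_005 (log2 fold change 0.95, standard error 0.18, adjusted p = 0.0402). Oplah, which returns 5-oxoproline to glutamate in the glutathione cycle, rose from 5.42 ± 0.0853 to 11.4 ± 3.76 CPM (log2 fold change 1.07, adjusted p = 0.0497). Gpx7, a peroxidase of the endoplasmic reticulum, rose from the low level of 0.714 ± 0.0969 CPM to 2.00 ± 0.601 CPM (log2 fold change 1.49, adjusted p = 0.0497). Glrx, like Gclm and Srxn1, was highest in circEZH2_005 sample 2 and lowest, among the 3, in circEZH2_005 sample 1. Oplah overlaps Smpd5 and Exosc4.

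Selenoproteins outside the 10 genes numbered 17 tested, of which 2 rose and 0 fell. Selenop, the protein that carries selenium in plasma, had 312.7, 363.5 and 327.9 CPM with the vector and 705.2, 1307 and 1210 CPM with circEZH2_005 (log2 fold change 1.68, standard error 0.22, adjusted p = 0.0182). Dio1, a deiodinase that acts on thyroid hormone, rose from 5.344 ± 0.1004 to 15.0 ± 6.53 CPM (log2 fold change 1.49, adjusted p = 0.0468). Selenop and Dio1 are known for secretion and hormone metabolism rather than for peroxide removal, and the 4 selenoproteins among the 10 genes, Gpx1, Gpx2, Gpx4 and Txnrd1, did not pass the test. Selenop overlaps Ccdc152.

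Of 15 oxidases that produce reactive oxygen or nitrogen species, 1 rose and 0 fell, and the median was 0.51. Ncf1, a subunit of the phagocyte NADPH oxidase, had 3.36, 6.87 and 3.87 CPM with the vector and 18.0, 15.1 and 11.6 CPM with circEZH2_005 (log2 fold change 1.67, standard error 0.30, adjusted p = 0.0342). Markers of leukocytes moved with it: the 8 markers summed to between 83.1 and 234.2 CPM with the vector and to between 303.4 and 531.0 CPM with circEZH2_005, in both groups highest in the sample in which Ncf1 was highest. Of these 8, 7 were higher without overlap (16.4% of all genes were), none was at 0 in any sample, and 0 passed the test across all genes. The part of leukocytes in the result for Ncf1 was not tested. Ncf1 overlaps Gtf2ird2. Of 12 genes of lipid peroxidation and ferroptosis, 0 rose and 1 fell. Tfrc, the transferrin receptor that imports iron, had 664.6, 440.5 and 748.5 CPM with the vector and 249.4, 226.7 and 251.6 CPM with circEZH2_005 (log2 fold change -1.35, standard error 0.19, adjusted p = 0.0203).

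**Figure D4:**
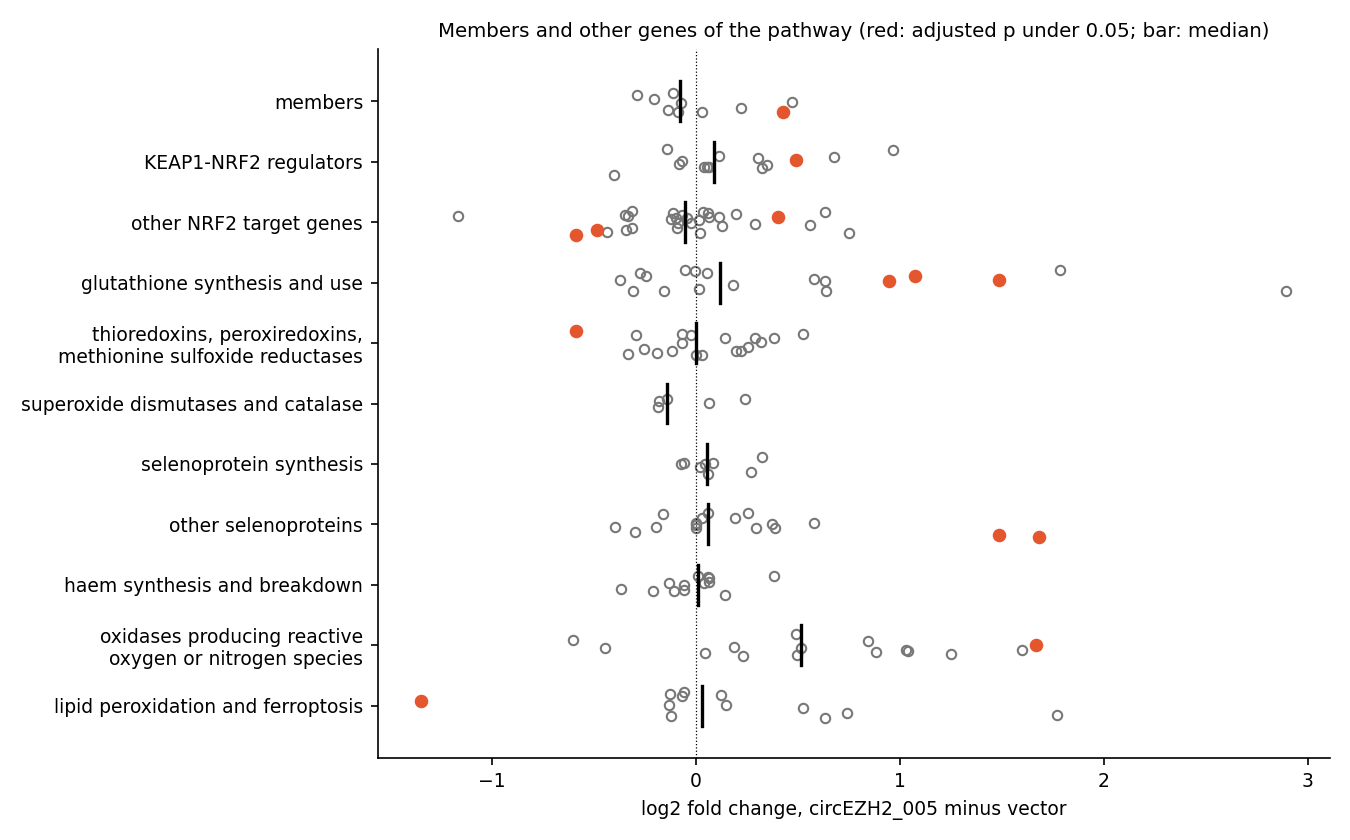
Log2 fold changes of circEZH2_005 minus vector (x axis) for the 10 members and for the tested genes of 10 pathway lists, with list medians as bars and genes with an adjusted p under 0.05 in red. Red points lie on both sides of 0 among other NRF2 target genes, and the list of oxidases has the highest median, 0.51.

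The libraries held between 71506487 and 79919893 counts each, of which the 10 genes took between 0.192% and 0.227%, and genes of the mitochondrial genome took between 7.70% and 8.20%. The labelled cell type was checked against its markers: Lgr5 was present at 12.1 to 18.4 CPM with the vector and 7.70 to 9.10 CPM with circEZH2_005, beside markers of enterocytes, Paneth, goblet, enteroendocrine and tuft cells. The 6 stem cell markers summed to between 1649 and 2517 CPM with the vector and to between 1166 and 1735 CPM with circEZH2_005. Most of the sum was Olfm4, which overlapped between the groups (1447 to 2314 against 1003 to 1565 CPM). Of the 6, 2 fell, Lgr5 and Smoc2, and 3 were lower without overlap between the groups, where 14.2% of all genes were. The median log2 fold change of the 6 was -0.55, although Axin2 and Rnf43 had values of 0.31 and 0.32 without a call. Over all genes tested, 0.986% were called lower and 2.69% higher. The 7 enterocyte markers summed to between 12680 and 14800 CPM against between 13290 and 25490 CPM, highest in circEZH2_005 sample 2. Of the 7, 1 rose, Apoa4, and 4 were higher without overlap between the groups, where 16.4% of all genes were. The median log2 fold change of the 7 was 0.86, although Fabp1 and Sis had values of -0.37 and -0.29 without a call. The 5 Paneth markers summed to between 2966 and 5489 CPM against between 1847 and 3326 CPM, with 0 calls. Among 6 goblet cell markers, summing to between 5446 and 7032 CPM against between 6397 and 8081 CPM, 1 rose. None passed among enteroendocrine (230.3 to 238.2 CPM against 210.5 to 236.0 CPM), tuft (26.65 to 32.96 against 25.7 to 30.3), macrophage (16.1 to 28.4 against 18.5 to 39.1), fibroblast (4.71 to 7.99 against 2.60 to 10.5) and erythroid markers (18.4 to 32.2 against 8.96 to 20.8). The part of these cell types in the differences of Gclm, Srxn1 and the other genes was not tested, and in bulk samples fewer cells of a type and less RNA per cell cannot be told apart.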

How the data were processed

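RNA sequencing of 6 samples labelled as intestinal crypt stem cells was used, 3 with the vector and 3 with circEZH2_005, and groups were taken from the sample labels. Control columns named as a negative control were matched to the vector samples, the only control group. The authors deposited, for each gene and sample, a count of reads without normalization and FPKM, which scale fragments to transcript length and sequencing depth. The submitters' processing notes name cutadapt 1.9, HISAT2 2.0.4, StringTie 1.3.4d, DESeq2 and mm10. The role of each, the strand setting and any filter are not given in the sources used here. Libraries were oligo(dT)-selected.

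Counts were filtered with filterByExpr, scaled with TMM and compared, without a covariate, by the quasi-likelihood F-test of edgeR 4.0.16 in R 4.3.3 over 18348 genes, with Benjamini-Hochberg adjustment and a threshold of 0.05. CPM are counts scaled to the TMM-adjusted library size. The standard error of a log2 fold change was obtained from it and F. Single genes and ratios were also compared with two-sided exact permutation tests. Alternatives used no filter or a mean of at least 1 FPKM, other scalings, DESeq2 1.42.0, limma 3.58.1 on log2(FPKM + 1) or log2(FPKM + 0.1) for genes averaging 0.5 FPKM or more, a replicate block, and each sample left out. Fold changes from limma refer to the log2(FPKM + pseudocount) scale. Gene positions follow the table (GRCm38) and matched GENCODE M21, except the end of Srxn1, which is 152111376 there.

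The members and lists were chosen with earlier results of these data known. All 10 members, Keap1 and Bach1 were named, and in each list up to 4 genes with an adjusted p under 0.05. Depth limits precision only for genes with few counts, and otherwise the 3 samples per group do.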

Additional observations from a re-analysis of the deposited data

How the results depend on the processing

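Of 149 alternative values for the 10 members, 128 kept their direction and their side of the threshold, 10 lost the call, 1 gained it and 10 reversed. DESeq2 called 2 members higher, and 0 were called with no filter, upper-quartile scaling, library totals alone, either limma test or the replicate block. Leaving out single samples gave 0 to 1 members. No alternative called a member lower. Gclm had adjusted p-values of 0.0880 with no filter, 0.0504 with upper-quartile scaling, 0.0550 with library totals and 0.0587 and 0.0609 with limma. The sign of Gpx4 reversed with library totals (-0.043), upper-quartile scaling (-0.018), log2(FPKM + 0.1) (-0.071) and log2(FPKM + 1) (-0.070), and ranged from -0.046 to 0.16 with samples left out. Hmox1 ranged from -0.37 to 0.092 with samples left out, and was not tested at a mean of at least 1 FPKM.

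Over all genes, 493 were higher and 181 lower. No filter gave 132 and 37, DESeq2 1574 and 698, log2(FPKM + 0.1) 323 and 319, and log2(FPKM + 1) 371 and 364. Samples left out gave 26 to 1098 higher, the lowest without vector sample 1, and 2 to 334 lower. For the other pathway genes, 8 higher and 3 lower became 2 and 1 with no filter, 5 higher with upper-quartile scaling, 20 and 8 with DESeq2, 5 and 6 with log2(FPKM + 1), and 0 to 11 higher and 0 to 4 lower with samples left out. The cause was not tested. The median of all genes moved by less than 0.1 under every setting. It moved most with limma, to -0.074 on log2(FPKM + 1) and -0.094 on log2(FPKM + 0.1). On log2(FPKM + 1), Nfe2l2 had a log2 fold change of -0.1742 and Txnrd1 of -0.1547, without a call. Their main log2 fold changes were -0.087 and -0.072, where the main median of all genes was 2.15e-05.

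Replicate numbers are shared between the groups, but samples of the same number did not deviate together (correlations -0.23, -0.04 and 0.09), and 1 of 6 correlated best with its own number. With the replicate block, 241 genes were higher and 36 lower, 0 members were called (Gclm adjusted p = 0.0868), and 1 other pathway gene was higher and 1 lower. Both limma tests on FPKM gave nearly as many genes lower as higher, whereas edgeR and DESeq2 on counts gave more higher. With edgeR this held without TMM as well, at 407 higher and 221 lower with library totals alone and 437 and 247 with upper-quartile scaling.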

Other observations

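Outside the rule for named genes, 5 genes of the lists had adjusted p-values just above the threshold, from 0.0520 to 0.0622 (edgeR). They were chosen after their values were seen, and the range with them. All 5 were higher with circEZH2_005 without overlap between the groups, as 16.4% of all genes were. A choice by small p-values favours groups without overlap, so this adds no support. Beyond this range, Txn2 was lower without overlap (log2 fold change -0.29, adjusted p = 0.0679, edgeR). Xdh, the xanthine oxidoreductase long studied as a source of oxidants on reoxygenation, had 521.7, 621.2 and 451.2 CPM with the vector and 740.9, 1363 and 1155 CPM with circEZH2_005 (log2 fold change 1.03, standard error 0.22, adjusted p = 0.0520). Rac2, a GTPase of blood cells that activates the phagocyte oxidase, had 8.07, 20.8 and 9.57 CPM against 49.5, 38.5 and 28.3 CPM (log2 fold change 1.598, standard error 0.37, adjusted p = 0.0574). Acsl4, which loads polyunsaturated fatty acids for membrane lipids, had 7.98, 9.20 and 6.61 CPM against 15.4, 12.0 and 12.3 CPM (log2 fold change 0.74, standard error 0.17, adjusted p = 0.0578).

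Osgin1, an NRF2 target, had 24.0, 29.7 and 22.9 CPM against 34.5, 53.9 and 40.5 CPM (log2 fold change 0.75, standard error 0.18, adjusted p = 0.0591), and Maff, a small MAF partner of NRF2, had 4.171, 7.067 and 5.596 CPM against 9.357, 13.52 and 10.03 CPM (log2 fold change 0.97, standard error 0.23, adjusted p = 0.0622). Xdh, Osgin1 and Maff were highest in circEZH2_005 sample 2, as Gclm and Srxn1 were, whereas Rac2 and Acsl4 were highest in circEZH2_005 sample 1. The superoxide dismutases Sod1 and Sod2 were lower without overlap (log2 fold changes -0.19 and -0.18), with adjusted p-values of 0.253 and 0.266.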
